A study of Homo sapiens with 16 samples.

Results

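The genes described here are 10 heat shock proteins and co-chaperones, picked by symbol from the 60623 genes of the series: HSPA1A, HSPA1B, HSPA8, HSPH1, DNAJB1, HSP90AA1, HSP90AB1, STIP1, HSPD1 and HSPE1. HSPA1A and HSPA1B were also summed, because their coding sequences are nearly identical. Of the 10 proteins, 8 work in the cytosol and nucleus, whereas HSPD1 and HSPE1 form the chaperonin of the mitochondrial matrix, so the name cytosolic heat shock genes does not cover that pair. The genes were chosen with the levels of these same Caco-2 libraries in view, above all their low levels in co-culture with free fatty acids (FFA). Changes of the 10 genes in Caco-2 cells are therefore given as descriptions with no p, and how many of them limma called stands only beside the share over all genes. Tests of the 10 genes are reported for HepG2. The difference between the lines uses Caco-2 levels too, so it is likewise given as a description with no p.

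The 16 libraries hold polyadenylated RNA of 2 human tumour cell lines kept in chambers of a microfluidic chip, Caco-2 (colon) standing for gut and HepG2 (liver) for liver. The 8 groups of 2 libraries each were Caco-2 mono-culture control, Caco-2 mono-culture FFA, Caco-2 co-culture control, Caco-2 co-culture FFA and the same 4 for HepG2. FFA was a mixture of palmitic and oleic acid at 1:2, 1 mM in total, in medium with bovine serum albumin, and control cells received none. In co-culture the chambers of both lines were connected, and each library came from the line named. The labels give sampling after 1 day, which is the shorter of the treatment periods that the study sequenced. The study's treatment method details the longer period, and all sample titles begin with LTC, so the period rests on the labels alone. Both chambers were starved of serum beforehand. The study states that its RNA sequencing was repeated in independent experiments, but no label ties the 2 replicates of a group to separate chips or cultures. The p-values thus measure the spread between these samples, part of which may be technical.

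Heat shock proteins hold unfolded proteins and help them to fold. HSP70 proteins bind short hydrophobic stretches in a cycle that J-domain proteins such as DNAJB1 start and nucleotide exchange factors such as HSPH1 reset, and the adaptor STIP1 passes clients on to HSP90. HSPA8 and HSP90AB1 are the forms that unstressed cells make, and HSPA1A, HSPA1B, DNAJB1, HSPH1 and HSP90AA1 are strongly induced by heat or misfolded protein. That induction runs through heat shock factor 1, which binds inverted repeats of GAA in promoters (heat shock elements).

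Promoters are shown because 9 of the 10 genes had their lowest Caco-2 levels in the same group and 7 of the 10 held at least 1 pair of GAA units before their start. Whether these are linked was not tested. Units placed as pairs head to head (GAANNTTC) or tail to tail (TTCNNGAA), which read the same on both strands, were searched in the 250 bases before each RefSeq start (GRCh38.p14). Of 17 such windows for the 10 genes, 7 windows of 7 genes held at least 1 pair of units and 4 windows of 4 genes held 3 units in a row (HSPA8, HSP90AA1, HSP90AB1 and HSPD1). Among all 35116 promoters of that length, 11.6% held a pair and 0.441% held 3 units. A match marks letters, not a bound site, and 3 units contain both kinds of pair, so these counts overlap. The windows of HSPH1, STIP1 and HSPE1 held no pair. For HSPE1 this rests on the RefSeq start used, since its window (197500129 to 197500378) lies wholly in annotated exons. The HSPD1 window with 3 units (197499841 to 197500090) lies before the GENCODE start of HSPE1 (197500140, plus strand), so those units are not particular to HSPD1. The 110 bases printed for 5 of the genes run 5′ to 3′ on the gene's strand, lie outside annotated exons and carry the matching units in capitals.
HSPA1A, chr6:31815385-31815494, plus strand: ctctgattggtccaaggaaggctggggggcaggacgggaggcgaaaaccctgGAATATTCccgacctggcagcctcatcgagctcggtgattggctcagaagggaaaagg
HSPA1B, chr6:31827581-31827690, plus strand: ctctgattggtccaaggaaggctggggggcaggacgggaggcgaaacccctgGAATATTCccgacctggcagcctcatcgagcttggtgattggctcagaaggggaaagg
DNAJB1, chr19:14518408-14518517, minus strand: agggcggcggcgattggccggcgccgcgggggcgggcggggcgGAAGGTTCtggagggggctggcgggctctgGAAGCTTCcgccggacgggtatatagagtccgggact
HSP90AA1, chr14:102087065-102087174, minus strand: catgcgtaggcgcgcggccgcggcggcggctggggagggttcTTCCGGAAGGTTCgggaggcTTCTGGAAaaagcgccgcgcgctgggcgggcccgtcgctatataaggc
HSP90AB1, chr6:44247755-44247864, plus strand: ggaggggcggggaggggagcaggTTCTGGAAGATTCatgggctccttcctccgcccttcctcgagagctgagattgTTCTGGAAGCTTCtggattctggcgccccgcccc
HSPA1A and HSPA1B, which lie side by side on chromosome 6 (31815543 to 31817946 and 31827738 to 31830254, GRCh38, GENCODE 44), had nearly the same window with 1 pair each, 106 and 105 bases before the start. DNAJB1 had separate pairs 77 and 47 bases before its start. HSP90AA1 had 1 stretch of 3 adjoining units and a separate pair 68 bases before its start. HSP90AB1 had 2 separate stretches of 3 units, beginning 165 and 112 bases before its start. The coding sequences of HSPA1A and HSPA1B, 1926 bases each, differed at 4 positions (99.8% identical), whereas their 3′ untranslated regions of 260 and 378 bases were 80.3% identical over the aligned part. How reads that fit both genes were assigned is not given in the sources used here, so the split between them is uncertain and the sum is the safer value.

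Levels are CPM, reads scaled so that every library has the same total, and errors are SD of 2 libraries. Depth ran from 49634 reads (HepG2 co-culture FFA replicate 2) to 1657430 (HepG2 co-culture control replicate 1), so 1 read stood for 0.603 to 20.1 CPM and 3 reads, taken as the floor, for 1.81 to 60.4 CPM. The reads come from PCR products without molecular identifiers, so a floor covers counting error only. Of 15 liver markers, 12 were higher in every HepG2 library than in every Caco-2 library, but none was at 0 throughout Caco-2, where ALB reached 965 CPM. VTN ran the other way, at 927 to 1441 CPM in Caco-2 and 355 to 685 CPM in HepG2. Of 15 gut markers, 5 were higher in every Caco-2 library than in every HepG2 library and 8 were at 0 in all HepG2 libraries. The gut marker FABP2 ran the other way, at 2.11 to 20.2 CPM in HepG2 and at most 1.98 CPM in Caco-2. TFF3 reached 195 CPM in HepG2 and 150 CPM in Caco-2. The gut markers CDX1 and SI were nearly or wholly absent from Caco-2 cells too, with CDX1 at 0 in all 8 libraries and SI at most 1.98 CPM. In Caco-2 cells the summed liver markers were 9955 to 11549 CPM in mono-culture and 12839 to 13495 CPM in co-culture, and within co-culture they were 12839 and 13138 CPM in control and 13135 and 13495 CPM with FFA. Their part in the changes below was not tested. In bulk RNA fewer cells of a kind and less RNA per cell cannot be told apart.

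**Figure D1:**
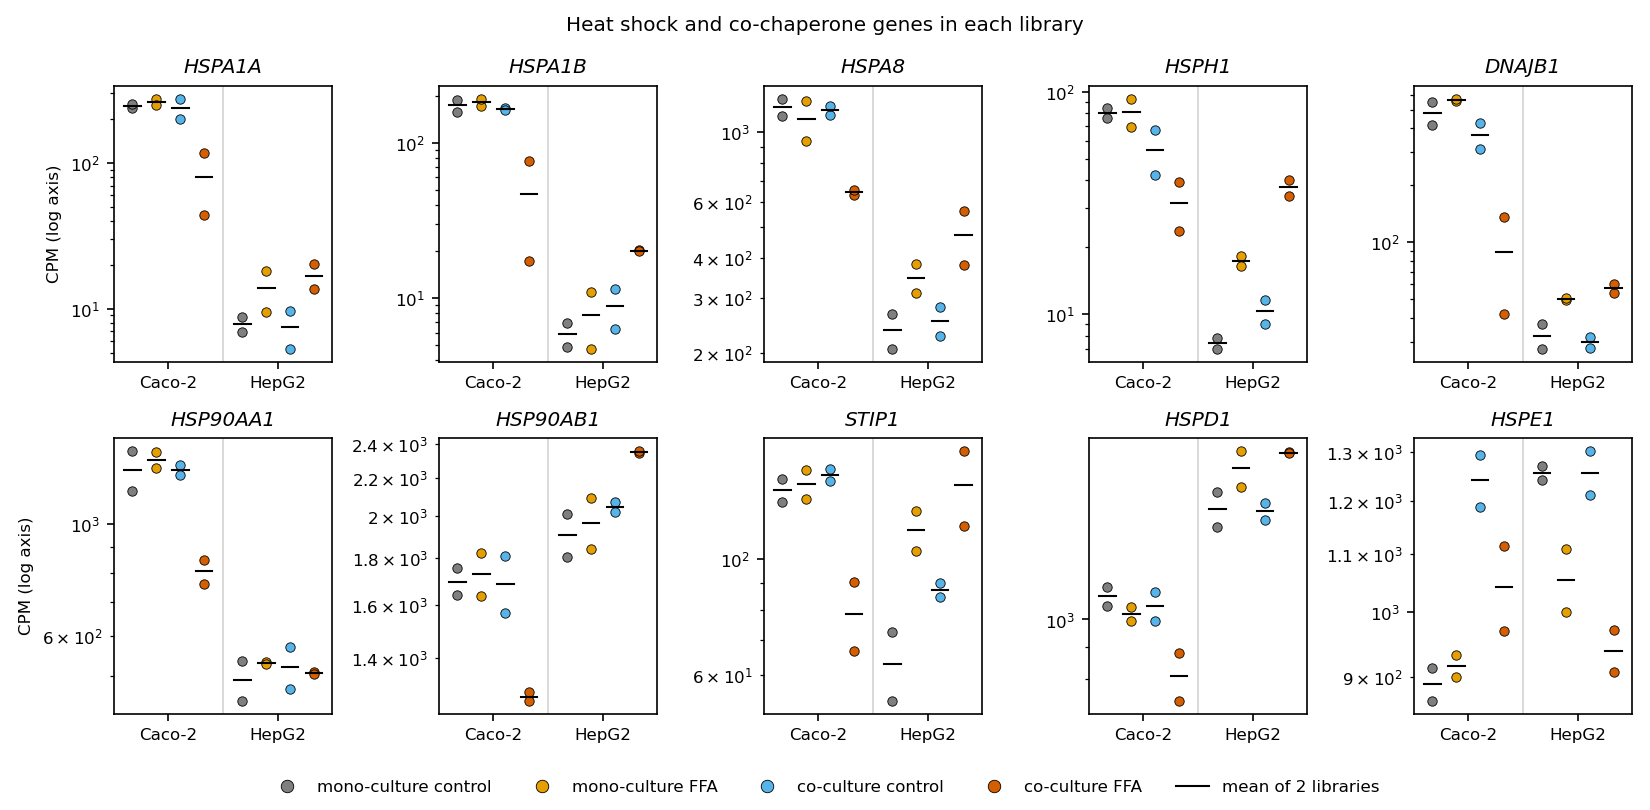
CPM (log axis, a separate scale for each gene) of the 10 genes in each library, with 1 point per library, colours for the 4 conditions and a line at the mean of the 2 libraries of a group. In Caco-2 cells the co-culture FFA points are the lowest of the line for every gene but HSPE1, and in HepG2 cells HSPH1 runs from 6.97 to 40.3 CPM.

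In Caco-2 cells treated with FFA in co-culture, all 10 genes were lower than in co-culture without FFA, and for none of them did the 2 groups overlap. Of all genes tested, 14.9% were lower and 15.2% higher without overlap in this comparison, and of those averaging 100 CPM or more 24.1% were lower. The log2 change ran from −2.25 (DNAJB1) to −0.25 (HSPE1), with a median of −0.82 beside a median of 0.00 over all 15454 genes tested. limma called no gene of the series in this comparison (0% of all genes), the 10 included. Since these values chose the genes, nothing more is read from them. The sum of all 10 was 4897 and 4906 CPM in the 2 libraries of co-culture with FFA, and between 6991 and 7693 CPM in the other 6 Caco-2 libraries.

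The inducible HSP70 genes were low in both libraries of that group. HSPA1A stood at 238 and 254 CPM in mono-culture control, 277 and 249 CPM in mono-culture FFA, 200 and 277 CPM in co-culture control, and 44.1 and 117 CPM in co-culture FFA. HSPA1B stood at 159 and 189, 173 and 193, 166 and 164, and 17.4 and 76.4 CPM in the same order. Both co-culture FFA libraries lay below all 6 others, and replicate 1 lay well below replicate 2. Summed, the pair stood at 127 ± 93.2 CPM in co-culture FFA against 404 ± 52.6 CPM in its control (SD, n = 2), and the log2 change was −1.87 (SE 0.34). Leaving out replicate 1 of co-culture FFA gave −1.05 and leaving out replicate 2 gave −2.69, so the direction was the same from either library but the size was not. HSPA1A reads outnumbered HSPA1B reads in every Caco-2 library, by 1.20 to 2.53 times.

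HSPA8, the constitutive HSP70 of the cytosol, was 1278 and 1123 CPM in mono-culture control, 940 and 1260 CPM in mono-culture FFA, 1137 and 1210 CPM in co-culture control, and 634 and 658 CPM in co-culture FFA. Its 2 low libraries agreed closely, and its log2 change with FFA in co-culture was −0.86 (SE 0.14). The ratio of HSPA1A plus HSPA1B reads to HSPA8 reads within a library was 0.0971 and 0.294 in co-culture FFA and 0.310 to 0.479 in the other Caco-2 libraries. Both ratios lay below the others, but that of replicate 2 (0.294) only just. That the pair was lower by more than HSPA8 thus rests mainly on replicate 1. HSPH1, the HSP110 that resets HSP70, was 84.8 and 76.4 CPM in mono-culture control, 69.2 and 93.2 CPM in mono-culture FFA, 67.4 and 42.4 CPM in co-culture control, and 23.6 and 39.4 CPM in co-culture FFA. Co-culture control already lay below both mono-culture groups, and co-culture FFA below both controls, with log2 changes of −0.58 (SE 0.31) for co-culture without FFA and −0.79 (SE 0.31) for FFA in co-culture.

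DNAJB1, the J-domain partner of HSP70, showed the widest range in Caco-2 cells. It stood at 550 and 416 CPM in mono-culture control, 556 and 574 CPM in mono-culture FFA, 311 and 427 CPM in co-culture control, and 42.1 and 137 CPM in co-culture FFA. Mono-culture FFA was thus the highest group and co-culture FFA the lowest, 565 ± 12.2 against 89.4 ± 67.0 CPM (SD, n = 2). Its log2 change with FFA was 0.24 (SE 0.36) in mono-culture and −2.25 (SE 0.36) in co-culture, and from co-culture FFA replicate 2 alone it was −1.41. DNAJB1 reads per HSPA8 read were 0.0663 and 0.208 in co-culture FFA and 0.274 to 0.592 elsewhere in the line.

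The HSP90 genes differed less between groups. HSP90AA1, the inducible form, was 1166 and 1400 CPM in mono-culture control, 1296 and 1388 CPM in mono-culture FFA, 1254 and 1314 CPM in co-culture control, and 762 and 851 CPM in co-culture FFA. HSP90AB1, the constitutive form, was 1639 and 1754, 1637 and 1824, 1809 and 1568, and 1287 and 1257 CPM. The groups of each gene apart from co-culture FFA overlapped throughout. The log2 change with FFA in co-culture was −0.67 (SE 0.12) for HSP90AA1 and −0.41 (SE 0.11) for HSP90AB1, and HSP90AA1 reads per HSP90AB1 read were 0.592 and 0.677 in that group against 0.693 to 0.838 in the others. STIP1, the adaptor between HSP70 and HSP90, was 129 to 149 CPM in the 6 other libraries and 90.3 and 66.5 CPM in co-culture FFA.

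The mitochondrial chaperonin genes did not move as a pair. HSPD1 (HSP60) was 1130 and 1054 CPM in mono-culture control, 994 and 1049 CPM in mono-culture FFA, 1109 and 995 CPM in co-culture control, and 881 and 734 CPM in co-culture FFA. HSPE1 (HSP10) was 865 and 913, 900 and 932, 1294 and 1187, and 1115 and 970 CPM. HSPE1 was therefore higher in both co-culture groups than in either mono-culture group, the only one of the 10 with that order. HSPE1 reads per HSPD1 read were 0.765 to 0.905 in the 4 mono-culture libraries and 1.17 to 1.32 in the 4 co-culture libraries. The genes lie head to head on chromosome 2 (HSPD1 at 197486584 to 197516737 on the minus strand, HSPE1 at 197500140 to 197503449 on the plus strand), and their annotated bounds overlap.

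**Figure D2:**
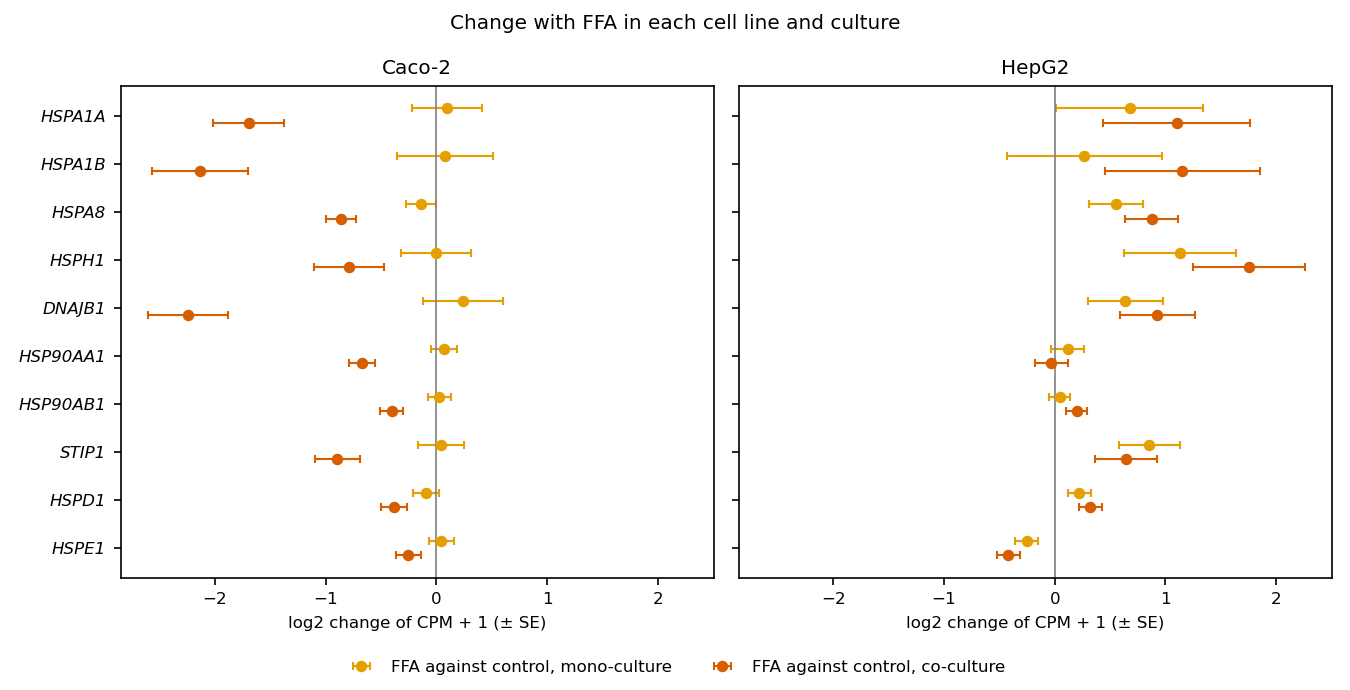
Log2 change of CPM + 1 with FFA against control (x axis) for each of the 10 genes in Caco-2 (left) and HepG2 (right), in mono-culture and co-culture, with points at the fitted change and bars of 1 SE. In Caco-2 cells the co-culture changes lie between −2.25 and −0.25 and the mono-culture changes between −0.14 and 0.24, and in HepG2 cells HSPE1 is the only gene below 0 in both cultures.

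Changes with FFA in mono-culture were small for these genes in Caco-2 cells. In mono-culture, 3 genes were below and 7 above 0, from −0.14 (HSPA8) to 0.24 (DNAJB1). The groups overlapped for 8 of them, while of all genes 10.3% were lower and 16% higher without overlap, and none of the 10 was called (0.00647% of all genes tested were). Co-culture without FFA gave 7 below and 3 above 0, again with 8 overlapping, where 9.6% of all genes were lower and 22% higher without overlap, and none called (0.0971% of all genes). Between mono-culture and co-culture with FFA present, 9 were lower and HSPE1 higher in co-culture, none overlapping (14.6% of all genes were lower and 20% higher in this way). There the log2 change was −2.88 (SE 0.36) for DNAJB1, −0.73 (SE 0.12) for HSP90AA1 and −1.85 (SE 0.32) for HSPA1A. limma called these 3 beside 0.0971% of all genes, and none with a pseudocount of 0.1, a constant prior variance or a fit to the 2 groups alone. This comparison holds the co-culture FFA libraries whose low values chose the genes, so nothing is read from that count.

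In HepG2 cells the genes were mostly higher with FFA, in both cultures. In mono-culture 9 of 10 were above 0, with a median log2 change of 0.41 beside 0.06 over all 14430 genes tested. There 6 were higher without overlap (20.2% of all genes were, and 30.6% of those averaging 100 CPM or more). In co-culture 8 of 10 were above 0, with a median of 0.76 beside −0.26 over all genes. That background depends on low genes, since it was 0.23 for genes averaging 10 CPM or more. It also depends on scaling, at −0.44 after median-ratio rescaling, −0.04 after quantile normalization, 0.05 in edgeR and 0.29 in DESeq2. The rescaled backgrounds do not match the 0.76, which is from the values as deposited. In co-culture 8 were higher without overlap (17.4% of all genes, and 32.5% of those averaging 100 CPM or more). HSPE1 was lower without overlap in both cultures (12.3% and 25.2% of all genes were, and 23.9% and 33.2% of those averaging 100 CPM or more). No gene of the 10 was called by limma in either culture, where 0% of all genes were. Averaged over culture none was called either, beside 0.0762% of all genes. edgeR on the recovered reads called 2 for the average (HSPA8 and HSPE1) and 1 in co-culture (HSPE1), and DESeq2 called HSPE1 in both. The share of all genes that these tools called is not given here, so nothing is read from these counts.

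HSPA8 in HepG2 cells was 267 and 206 CPM in mono-culture control, 311 and 382 CPM in mono-culture FFA, 281 and 226 CPM in co-culture control, and 381 and 564 CPM in co-culture FFA. All 4 FFA libraries lay above all 4 controls, with a log2 change averaged over culture of 0.71 (SE 0.17, limma adjusted p = 0.173). STIP1 followed the same order at 53.4 and 72.3, 104 and 124, 89.9 and 84.6, and 116 and 161 CPM, with an averaged change of 0.75 (SE 0.20, limma adjusted p = 0.195). DNAJB1 was 37.1 and 27.4, 49.5 and 50.9, 27.8 and 31.7, and 54.4 and 60.4 CPM, an averaged change of 0.78 (SE 0.24, limma adjusted p = 0.225). For each of these 3 genes the FFA libraries were clear of the controls, yet none passed the test. In co-culture FFA, STIP1 rests on 17 and 8 reads and DNAJB1 on 8 and 3, the latter at the floor of 60.4 CPM.

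HSPH1 had the largest HepG2 change but few reads. It was 6.97 and 7.82 CPM in mono-culture control, 16.5 and 18.2 CPM in mono-culture FFA, 9.05 and 11.6 CPM in co-culture control, and 34.0 and 40.3 CPM in co-culture FFA. Those values rest on 2 to 15 reads per library, and in co-culture FFA on 5 and 2. The averaged log2 change was 1.44 (SE 0.36, limma adjusted p = 0.187). HSPA1A and HSPA1B had 1 to 19 reads each in every HepG2 library. Their sum was 13.8 ± 0.177 CPM in mono-culture control, 21.6 ± 10.6 CPM in mono-culture FFA, 16.4 ± 6.71 CPM in co-culture control, and it reached 37.1 ± 4.46 CPM in co-culture FFA (SD, n = 2). The last group rests on 5 and 2 reads of the pair and on 1 to 3 reads of either gene per library, so the plotted changes of the single genes carry little weight. The depth could not show whether the pair differed between the HepG2 groups (averaged log2 change 0.86, SE 0.38, limma adjusted p = 0.362).

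The HSP90 genes of HepG2 cells hardly differed between groups. HSP90AA1 was 446 and 535 CPM in mono-culture control, 532 and 528 CPM in mono-culture FFA, 570 and 470 CPM in co-culture control, and 510 and 504 CPM in co-culture FFA, and no neighbouring groups in order of level were clear of each other. Its averaged change was 0.04 (SE 0.11, limma adjusted p = 0.883). HSP90AB1 was 2010 and 1803, 2094 and 1841, 2072 and 2019, and 2345 and 2357 CPM, with co-culture FFA above the other 3 groups and an averaged change of 0.12 (SE 0.07, limma adjusted p = 0.455). Its change in co-culture was 0.20 as deposited but −0.21 after median-ratio rescaling, and −0.05 and −0.19 with the scaling of edgeR and DESeq2.

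HSPE1 and HSPD1 parted in HepG2 cells with FFA. HSPD1 was 1618 and 1418 CPM in mono-culture control, 1892 and 1652 CPM in mono-culture FFA, 1553 and 1455 CPM in co-culture control, and 1883 and 1874 CPM in co-culture FFA. HSPE1 was 1242 and 1270, 1109 and 1001, 1302 and 1210, and 972 and 907 CPM. Every FFA library was above every control library for HSPD1 and below every control library for HSPE1. The averaged log2 change was 0.27 (SE 0.07, limma adjusted p = 0.202) for HSPD1 and −0.34 (SE 0.07, limma adjusted p = 0.147) for HSPE1. The direction of HSPE1 in co-culture was the same under all 18 alternatives, whereas that of HSPD1 turned under 2 of 18, at −0.09 after median-ratio rescaling and −0.07 in DESeq2. The ratio of HSPE1 to HSPD1 reads needs no scaling between libraries. It was 0.768 to 0.895 in the 4 control libraries and 0.484 to 0.606 in the 4 FFA libraries. This ratio was chosen after its values were seen, and is given without a test.

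**Figure D3:**
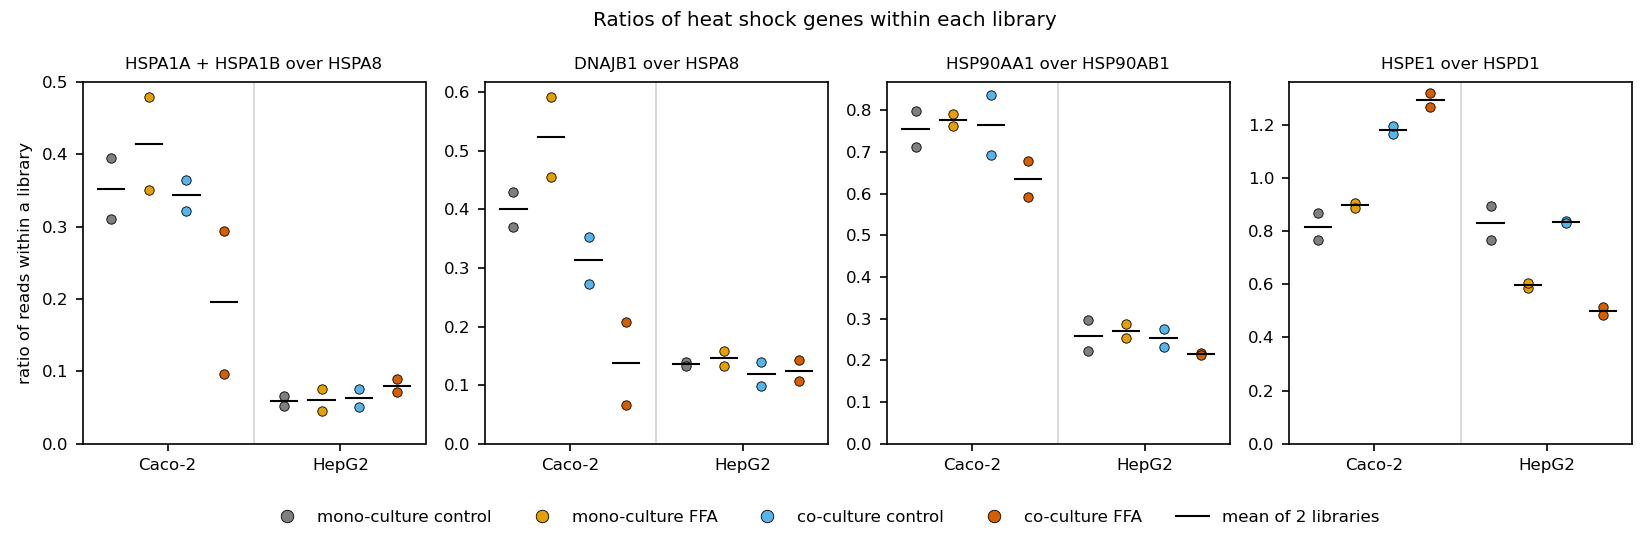
Ratio of reads between genes within a library (y axis, from 0) for HSPA1A plus HSPA1B over HSPA8, DNAJB1 over HSPA8, HSP90AA1 over HSP90AB1 and HSPE1 over HSPD1, with 1 point per library and a line at the group mean. The ratio of HSPE1 to HSPD1 is 1.17 to 1.32 in Caco-2 co-culture against 0.765 to 0.905 in Caco-2 mono-culture, and 0.484 to 0.606 in HepG2 with FFA against 0.768 to 0.895 in HepG2 controls.

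Co-culture alone gave no call among the 10 genes in HepG2 cells. Without FFA, 7 of 10 overlapped (20.5% of all genes were higher and 12.4% lower without overlap) and none was called (0% of all genes). With FFA, 4 were higher and 2 lower without overlap (12.8% and 14.3% of all genes), and none was called (0% of all genes). The interaction of FFA and culture was called for none of the 10 (0% of all genes), with adjusted p-values in limma from 0.721 to 0.881. The co-culture FFA libraries of HepG2 cells were the shallowest of the 16, at 147096 and 49634 reads, which limits what these comparisons could show.

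The lines differed widely in basal level. In mono-culture control, 9 of the 10 genes were called between HepG2 and Caco-2 in a fit over all 16 libraries (10.6% of all 17544 genes tested were). Of these, 7 were lower in HepG2 (5.77% of all genes) and 2 higher (4.78%). Caco-2 levels that chose the genes enter this comparison, so nothing more is read from the counts. The summed HSPA1A and HSPA1B were 420 ± 32.6 CPM in Caco-2 and 13.8 ± 0.177 CPM in HepG2 (SD, n = 2), and the log2 difference was −4.83 (SE 0.46). DNAJB1 differed by −3.87 (SE 0.40), HSPH1 by −3.28 (SE 0.38), HSPA8 by −2.35 (SE 0.20), HSP90AA1 by −1.39 (SE 0.13) and STIP1 by −1.11 (SE 0.25). The chaperonin genes went the other way, HSPD1 by 0.47 (SE 0.11) and HSPE1 by 0.50 (SE 0.10). HSP90AB1 did not pass at 0.17 (SE 0.09). STIP1, HSPD1 and HSPE1 lost the call with a constant prior variance, and STIP1 and HSPD1 also without Caco-2 mono-culture control replicate 2 or HepG2 mono-culture control replicate 1.

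**Figure D4:**
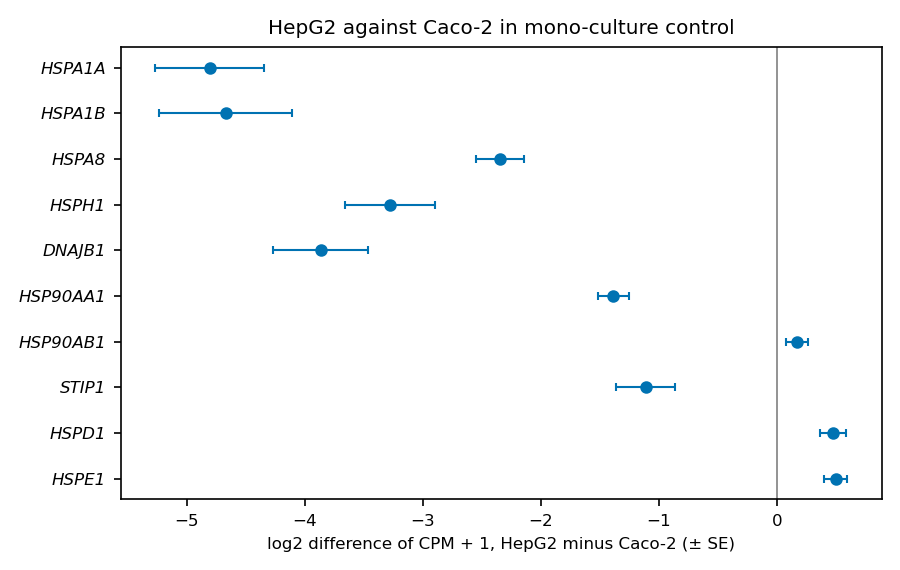
Log2 difference of CPM + 1 between HepG2 and Caco-2 in mono-culture control (x axis) for the 10 genes, with bars of 1 SE. The inducible HSP70 genes lie lowest at −4.80 and −4.67, HSP90AB1 lies at 0.17, and HSPD1 and HSPE1 lie at 0.47 and 0.50.

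The balance of inducible to constitutive forms differed accordingly. HSPA1A plus HSPA1B reads per HSPA8 read were 0.0454 to 0.0893 in HepG2 cells, below every Caco-2 library. HSP90AA1 reads per HSP90AB1 read were 0.214 to 0.296 in HepG2 cells and 0.592 to 0.838 in Caco-2 cells. In DNAJB1 reads per HSPA8 read the lines met, since Caco-2 co-culture FFA replicate 1 (0.0663) lay below all HepG2 libraries, which ran from 0.0987 to 0.159.

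Across the 8 libraries of a line, most of the 10 genes varied together. In Caco-2 cells 37 of 45 gene pairs had a positive r (median 0.82), and in HepG2 cells 35 of 45 (median 0.61). The points share libraries, depth and the co-culture FFA group, so these values are descriptions. In HepG2 cells the lowest r was −0.95, between HSPH1 and HSPE1. Outside the list, the genes with the highest r to the mean of the 10 in Caco-2 cells, among 1923 genes averaging 50 CPM or more, were CLK1 (0.98), RBM7 (0.96), ATF4 (0.94), VBP1 (0.94) and RSL24D1 (0.94). CLK1, a kinase of splicing factors, averaged 46.9 CPM in Caco-2 co-culture FFA against 94.6 CPM in its control. ATF4, the transcription factor of the integrated stress response, averaged 268 against 370 CPM there. Among 2029 genes in HepG2 cells the highest were MRPL3 (0.99), ADRM1 (0.97) and SENP3-EIF4A1 (0.97), whereas ATF4 and RSL24D1 had an r of 0.12 and −0.39 and the other 3 did not reach that average in HepG2 cells.

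Related gene lists were looked at in the same comparisons. For FFA in co-culture, none of their genes was called in either line. In Caco-2 cells 12 of 18 other heat shock genes tested were below 0 and 5 above (median −0.20), among them HSPB1, a small heat shock protein (75.5 ± 10.9 to 49.8 ± 9.41 CPM), and the J-domain protein DNAJA1 (407 ± 20.4 to 289 ± 13.4 CPM). Of 12 HSP90 co-chaperones 10 were below 0 (median −0.34), with FKBP4 at −0.83 (SE 0.40) and AHSA1 at −0.50 (SE 0.27). Of 14 subunits of the cytosolic chaperonin CCT and of prefoldin 12 were below 0 (median −0.26), led by the prefoldin subunit VBP1 at −0.94 (SE 0.26), with PFDN6 at 0.76 (SE 0.45). Of 11 HSP70 co-chaperones 6 were below 0 (median −0.13), with DNAJC2 at −0.32 (SE 0.30) and ST13 at −0.18 (SE 0.14). Of 10 mitochondrial chaperones 7 were below 0 (median −0.19), with CLPP at −0.77 (SE 0.35) and the mitochondrial HSP70, HSPA9, at −0.55 (SE 0.17). Of 10 endoplasmic reticulum chaperones 8 were below 0 (median −0.20), with HYOU1 at −1.16 (SE 0.42) and HSPA5 at −0.56 (SE 0.16). The heat shock factor list had 3 of 5 genes tested, with HSBP1, which binds heat shock factor 1, at 0.06 (SE 0.18). Of 10 immediate-early genes 6 were below 0 (median −0.09), with IER3 at −0.79 (SE 0.27) and JUN at −0.47 (SE 0.31). Over all genes tested in Caco-2 cells, 51.1% were below 0 in this comparison.

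In HepG2 cells FFA in co-culture gave positive medians for most of these lists, beside 62.5% of all genes below 0. Among genes averaging 100 CPM or more 51.7% were below 0, and the median change was 0.23 for those averaging 10 CPM or more, so list medians of 0.27 to 0.43 lie near that of well-measured genes. All but 1 of 10 endoplasmic reticulum chaperones were above 0 (median 0.79), led by DNAJB9 at 2.14 (SE 0.39) and PDIA4 at 1.47 (SE 0.18). Of 14 CCT and prefoldin subunits 11 were above 0 (median 0.43), led by CCT7 at 1.06 (SE 0.17) and CCT8 at 0.92 (SE 0.44). Of 12 HSP90 co-chaperones 7 were above 0 (median 0.61), with CDC37 at 1.20 (SE 0.42) and PTGES3 at 0.74 (SE 0.22). Of 11 HSP70 co-chaperones 7 were above 0 (median 0.27), with BAG2 at 1.29 (SE 0.47) and DNAJC2 at 0.97 (SE 0.42). Of 10 mitochondrial chaperones 6 were above 0 (median 0.42), with TRAP1, the mitochondrial HSP90, at 1.46 (SE 0.36) and HSPA9 at 0.58 (SE 0.29). Of 14 other heat shock genes only 4 were above 0 (median −0.15), though HSPA4 and DNAJB6 were at 1.52 (SE 0.40) and 1.51 (SE 0.57). Of 10 immediate-early genes 9 were above 0 (median 1.25), with KLF6 at 2.04 (SE 0.77) and IER3 at 1.07 (SE 0.51), and of 4 heat shock factor genes 1 was, with HSBP1 at −0.11 (SE 0.16). The summed immediate-early genes were 170 and 705 CPM in the 2 HepG2 co-culture FFA libraries and 80.1 to 207 CPM in the other 6, and their part in the changes was not tested.

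Averaged over culture, limma called 2 of 10 endoplasmic reticulum chaperones higher with FFA in HepG2 cells, where 0.0762% of all genes were called. The lists were chosen with earlier results of these data known, so these calls are descriptions and no p is given. How they depend on the settings was not examined. HSPA5 (BiP), the HSP70 of that compartment, averaged 2036 ± 238 CPM with FFA against 1288 ± 66.7 CPM without it in mono-culture, and 3408 ± 631 against 1388 ± 98.1 CPM in co-culture (SD, n = 2). Its averaged log2 change was 0.97 (SE 0.10). PDIA4, a disulfide isomerase, was higher by 1.04 (SE 0.13). In Caco-2 cells DNAJB6, the J-domain protein that keeps aggregating peptides soluble, was called for co-culture averaged over FFA at −0.86 (SE 0.18), where 0.453% of all genes were called. This call is likewise a description. In that same comparison FOS and FOSB, immediate-early transcription factors, were called at 1.51 (SE 0.22) and 2.91 (SE 0.55).

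Annotations of other genes overlap most of the 10 loci, and the 2 same-strand overlaps with many reads are described here. On the opposite strand, TECR (2041 reads) overlaps DNAJB1, and HSPD1 and HSPE1 overlap each other. Whether reads were shared there was not tested. The long non-coding RNA AL671762.1, which overlaps HSPA1B and SNHG32 on the same strand, held 7269 reads over the 16 libraries and SNHG32 7303, with a difference of at most 5 reads in any library, against 672 reads of HSPA1B, so few if any HSPA1B reads were also counted for it. The read-through gene HSPE1-MOB4 held 9148 reads against 11055 of HSPE1, 0.779 to 0.933 per HSPE1 read in each library, and from the counts alone it cannot be told how many are the same reads. Pseudogenes of the 10 genes held at most 2.32% as many reads as their parent (189 against 8137 for HSP90AA1).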

How the data were processed

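Per the labels, polyadenylated RNA was amplified as PCR cDNA with barcodes and sequenced on an Oxford Nanopore device, and the submitters' processing notes name minimap2 2.22 and GRCh38. The study's methods describe other mapping and counting tools without saying whether they were used for these reads. An extraction label names another cell type, which was taken as a label error, and groups were taken from sample titles. The deposited values are named TPM by the authors, but in each library 99.6% to 100% of them were whole multiples of a single step, so they were treated as deposited CPM and whole reads were recovered from the step. The tests planned for TPM were kept. Transformation was log2 of CPM plus 1, for genes averaging 1 CPM or more over a group (15454 in Caco-2, 14430 in HepG2, 17544 in both). Group means were modelled in limma 3.58.1 (R 4.3.3) under a trended prior, with Benjamini-Hochberg adjustment over all genes tested and a threshold of 0.05. edgeR 4.0.16 (quasi-likelihood) and DESeq2 1.42.0 on recovered reads were alternatives, beside other pseudocounts, filters, scalings, blocks and omitted libraries, and the fits were tested on simulated data. Fold sizes and log2 changes are therefore on the scale of CPM plus 1, which understates low genes.

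The 10 genes and all lists were chosen with earlier results of these data known. Named were all 10 genes, from each related list the genes called and the 2 with the largest change in the comparison discussed among those averaging 20 CPM or more, and the genes most like the mean of the 10. For lists, the comparison discussed is FFA in co-culture. Of 60623 gene identifiers, 60295 (99.459%) were in GENCODE 44, used for positions, and promoter sequences are from RefSeq (GRCh38.p14), where all 10 genes were matched by symbol.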

Additional observations from a re-analysis of the deposited data

Results flagged for a closer look

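Several genes moved in opposite directions in the 2 cell lines, with every library of a line on the same side of its comparison group. These differences between lines were not tested, because the Caco-2 values had chosen the genes. For FFA in co-culture, the HepG2 log2 change minus the Caco-2 log2 change was 3.29 for HSPA1B, 3.17 for DNAJB1, 2.80 for HSPA1A, 2.54 for HSPH1, 1.73 for HSPA8, 1.53 for STIP1, 0.71 for HSPD1 and 0.61 for HSP90AB1. The HSPA1A and HSPA1B values rest on 1 to 3 reads in each HepG2 co-culture FFA library. There HSPH1 rests on 5 and 2 reads, DNAJB1 on 8 and 3 and STIP1 on 17 and 8. For HSP90AB1 and HSPD1 the HepG2 direction itself turned with median-ratio rescaling.

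For co-culture against mono-culture with FFA present, the difference was 3.65 for HSPA1B, 3.07 for DNAJB1, 2.42 for HSPH1, 0.70 for HSP90AB1 and −0.35 for HSPE1. For co-culture without FFA it was 1.01 for HSPH1, and for FFA in mono-culture 0.32 for HSPD1. Within Caco-2 cells, the DNAJB1 change with FFA was higher without overlap in mono-culture and lower without overlap in co-culture, a difference of −2.49 that was likewise not tested.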

How the results depend on the processing

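Counts below are of the 10 genes called. The share of all genes called under each setting is not given here, so nothing is read from the size of a count. Those in Caco-2 cells and between the lines only show how settings move a count, since the Caco-2 libraries chose the genes. No call changed for HepG2 co-culture, its interaction or FFA in mono-culture in either line, and no called value turned its direction. In Caco-2 cells the counts as reported were 0 for FFA in co-culture, averaged FFA, co-culture without FFA and the interaction, 3 for co-culture with FFA, 1 for averaged co-culture and 3 for any difference among the groups. For FFA in co-culture the count became 5 with no filter, with the 10 CPM filter and with the replicate block, 4 in edgeR and 2 with quantile normalization. For averaged FFA it became 2 with the 10 CPM filter and in edgeR, and 1 with the block. For co-culture without FFA it became 1 with the 10 CPM filter and in the fit to 2 groups. For co-culture with FFA it became 0 with a pseudocount of 0.1, a constant prior variance or the fit to 2 groups, 1 with median-ratio rescaling, 5 with no filter, quantile normalization or the block, 7 with the 10 CPM filter and 8 in edgeR. For averaged co-culture it became 0 with a pseudocount of 0.1 or a constant prior variance, 4 with quantile normalization, 5 in DESeq2, 6 with no filter, 7 with the 10 CPM filter or the block and 8 in edgeR. The interaction count became 1 (DNAJB1) with no filter, the 10 CPM filter, the block and edgeR. For any difference it became 0 with a pseudocount of 0.1 or a constant prior variance, 5 with no filter, quantile normalization, the block or DESeq2, and 8 with the 10 CPM filter or in edgeR. In HepG2 cells quantile normalization called 1 (HSPD1) and DESeq2 called 1 (HSPE1) for both FFA in co-culture and averaged FFA, edgeR called 1 and 2, and edgeR and DESeq2 each called 1 for any difference. The count of 9 between the lines became 6 with a constant prior variance.

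Leaving out 1 library gave 0 to 3 for Caco-2 FFA in co-culture, averaged FFA, co-culture with FFA, the interaction and any difference, and 0 to 4 for averaged co-culture. It gave 0 to 3 for HepG2 FFA in co-culture, 0 to 5 for averaged FFA and 7 to 9 between the lines. Such a fit assumes that the lone library varies like the other groups. The share of all genes that it called is not given either, so nothing is read from these counts. In Caco-2 cells co-culture FFA was called for HSPA1B and STIP1 without its replicate 1, and for DNAJB1, HSPA1A and HSPA1B without its replicate 2, while co-culture with FFA lost all 3 calls without either co-culture control or without either mono-culture control or without either mono-culture FFA library, where leaving out its replicate 1 called HSPA8 instead. The causes were not tested. For the pairing check, deviations of libraries with the same replicate number correlated at −0.005 to 0.032 across genes in Caco-2 and −0.017 to 0.024 in HepG2. Over genes averaging 100 CPM or more they correlated at −0.017 to 0.291 and −0.103 to 0.121, above 0 for 5 of 6 pairs of groups in each line but not above 0.1 for every pair, so the numbers were taken as labels only. Of the single-gene values under all alternatives, 2515 kept both their direction and their side of the threshold. Of the rest, 136 gained the call, 59 lost it, and 136 turned direction while called in neither fit. Depth limits HSPA1A, HSPA1B and HSPH1 in HepG2 cells, where most libraries hold fewer than 10 reads of each. It also limits DNAJB1 and STIP1 in HepG2 co-culture FFA.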
